A study of Mus musculus with 9 samples.

Results

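The later granule proteins of the neutrophil and the lysozymes are proteins, several of them antimicrobial, that developing neutrophils store in their granules. They were followed here through 10 genes: Ltf, Camp, Ngp, Lcn2, Mmp8, Mmp9, Hp, Chil3 (Chi3l3 in older naming), Lyz1 and Lyz2. Every probe whose accession belonged to one of the 10 genes was taken, which gave 13 of the 41174 distinct probes on the array and all 10 of the genes, out of 16535 genes that could be named. Ltf, Mmp9 and Lyz2 had 2 probes each. All 13 probes were well above background on all 9 arrays, so none was tested only because it was bright in a single group.

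FDCPmix cells are multipotent mouse blood progenitors that keep renewing themselves in culture and can still mature along several lineages. They were transduced under self-renewal conditions with lentivirus carrying a short hairpin RNA (shRNA) against Gata2 (Gata2 KD), an shRNA against Pu.1 (Pu.1 KD) or no hairpin (empty vector, EV). Pu.1 is the usual name of Spi1. After 5 days living GFP+ cells were isolated by sorting, and the Cy3-labeled RNA of each sample was read on an Agilent mouse array, 3 arrays for each group and 9 in all. All groups come from a single cell line, the control carried no hairpin, and the labels speak of triplicate samples without saying whether these were separate transductions, so the p-values measure the spread between these samples, which may in part be technical.

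Neutrophils fill their granules in sequence as they mature. Primary granules with myeloperoxidase and serine proteases form in promyelocytes, specific (secondary) granules with lactoferrin and cathelicidin form in myelocytes, and gelatinase granules with matrix metalloproteinase 9 form later still. The transcripts of the later granule proteins are therefore used as markers of neutrophil maturation, and transcription factors of the C/EBP family, together with PU.1 and GFI1, are known to control many of them. Lysozyme is shared with monocytes and macrophages, and Chil3 and Hp are made by other cells too.

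Since these genes moved together, the proximal promoters are shown for 5 of them and, for comparison with Lyz1, for Lyz2. RefSeq windows of 300 bases on GRCm38.p6, from 250 bases before each gene's start to 50 after it, could be matched for 8 of the 10 genes (Ltf, Camp, Ngp, Lcn2, Mmp8, Chil3, Lyz1 and Lyz2). The sequences are given 5′ to 3′ on the strand of the gene, and capitals mark matches, on either strand, to the ETS core GGAAG, the longer PU.1-type GGAAGTG (which contains the ETS core) or the C/EBP-type TTGCNNAA. The 5 motifs searched were chosen with these sequences in view, so their counts are a description only.
Ltf (chr9:111019042-111019341, plus strand): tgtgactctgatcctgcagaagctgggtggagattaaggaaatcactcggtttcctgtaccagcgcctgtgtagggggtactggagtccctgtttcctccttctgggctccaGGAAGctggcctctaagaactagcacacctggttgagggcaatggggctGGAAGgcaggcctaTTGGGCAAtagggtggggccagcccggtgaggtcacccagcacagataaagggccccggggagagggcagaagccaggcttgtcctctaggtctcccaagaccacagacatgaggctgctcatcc
Ngp (chr9:110419558-110419857, plus strand): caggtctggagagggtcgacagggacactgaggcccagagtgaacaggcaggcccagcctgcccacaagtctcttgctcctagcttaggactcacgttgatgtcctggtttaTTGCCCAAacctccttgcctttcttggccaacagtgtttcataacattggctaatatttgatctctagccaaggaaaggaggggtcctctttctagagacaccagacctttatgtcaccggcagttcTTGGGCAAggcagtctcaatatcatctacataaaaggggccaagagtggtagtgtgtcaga
Mmp8 (chr9:7558179-7558478, plus strand): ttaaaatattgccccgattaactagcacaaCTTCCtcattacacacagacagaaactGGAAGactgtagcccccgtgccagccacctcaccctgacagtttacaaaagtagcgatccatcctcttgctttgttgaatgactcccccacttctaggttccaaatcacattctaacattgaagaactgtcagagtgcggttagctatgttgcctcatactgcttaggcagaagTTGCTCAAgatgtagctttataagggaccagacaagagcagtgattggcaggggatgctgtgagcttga
Chil3 (chr3:106167515-106167814, minus strand): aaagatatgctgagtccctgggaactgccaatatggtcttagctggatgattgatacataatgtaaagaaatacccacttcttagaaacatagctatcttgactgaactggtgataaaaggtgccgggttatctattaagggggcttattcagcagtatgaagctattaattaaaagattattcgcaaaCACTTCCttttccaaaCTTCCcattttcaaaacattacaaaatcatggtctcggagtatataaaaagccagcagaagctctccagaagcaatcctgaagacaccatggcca
Lyz1 (chr10:117292819-117293118, minus strand): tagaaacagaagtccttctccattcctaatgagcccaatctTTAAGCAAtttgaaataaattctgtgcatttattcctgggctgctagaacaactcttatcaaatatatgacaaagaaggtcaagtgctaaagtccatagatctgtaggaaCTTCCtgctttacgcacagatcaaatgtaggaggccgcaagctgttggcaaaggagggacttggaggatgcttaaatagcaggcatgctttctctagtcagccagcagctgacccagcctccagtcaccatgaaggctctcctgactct
Lyz2 (chr10:117282223-117282522, minus strand): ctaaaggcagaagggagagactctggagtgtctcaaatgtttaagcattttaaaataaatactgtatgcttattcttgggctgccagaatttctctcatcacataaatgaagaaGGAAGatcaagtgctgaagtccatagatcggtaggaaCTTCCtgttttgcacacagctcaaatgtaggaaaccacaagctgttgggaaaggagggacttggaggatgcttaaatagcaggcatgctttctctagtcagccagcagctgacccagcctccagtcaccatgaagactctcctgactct

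The C/EBP-type TTGCNNAA was present in the windows of 5 of the 8 genes (Ltf, Ngp, Lcn2, Mmp8 and Lyz1), and 10.8% of the 32851 mouse promoter windows of the same length held it. In Ngp it occurred 2 times, the nearer copy beginning 11 bases before the start of the gene, and the copy in Mmp8 began 19 bases before the start. The ETS core was in 7 of the 8 windows, in a genome where 71.4% of windows hold it, and the longer GGAAGTG was in the Chil3 window only, against 11% of all windows. The exact GATA motif AGATAAG was in 0 of the 8 windows and in 3.04% of all windows. Shorter or variant GATA forms were not counted, although some are present, such as AGATAA in the Ltf window. TATAAA was in 2 of the 8 and in 13.6% of all windows. A match shows only that the letters are there, and nothing about a factor follows from their absence. The windows of Lyz1 and Lyz2, neighboring paralogs on chromosome 10, were 82.5% identical over their alignment, and 141 of the last 150 columns were identical. The other 27 pairs of windows were 42.6% to 49.1% identical.

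Each value is a log2 intensity minus the log2 of its array's 75th percentile, so 0 is a rather bright spot, and levels of different probes cannot be compared. Changes are differences of group means on that scale, tested with limma over 36585 probes, and a gene was called at a Benjamini-Hochberg adjusted p under 0.05. Array values are given in the order of replicates 1, 2 and 3. Between 80.4% and 89.6% of spots on an array read above background and none was saturated. EV replicate 3 stood a little apart, with a mean correlation of 0.960 with the other arrays against 0.971 or more for the rest, and results that rest on it are given without it as well. Each of the 3 slides held 1 array of every group, and with the slide as a block the numbers of called genes given here stayed at 9, 8 and 10, while counts of other lists that it changed are given with those lists. The hairpins were checked first. Gata2 read 4.48, 5.01 and 4.84 in EV and 3.56, 2.91 and 2.96 in Gata2 KD, a fall by 1.63 (adjusted p = 0.00398), and 4.50, 4.84 and 4.52 in Pu.1 KD (adjusted p = 0.962). Spi1 read -1.68, -1.89 and -2.09 in EV, -3.65, -3.68 and -3.55 in Pu.1 KD, a fall by 1.74 (adjusted p = 0.0018), and -0.71, -0.41 and -0.44 in Gata2 KD, where it rose by 1.37 (adjusted p = 0.00129).

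Gata2 KD raised the later granule and lysozyme genes. Of the 10 genes, 9 rose against EV, none fell and Mmp9 was not called on its brighter probe, where 2.83% of all tested probes were called higher and 2.33% lower. The median change was 3.37 on the log2 scale, from 1.52 for Mmp9 to 5.09 for Hp, beside a median of -0.11 over all 15808 genes tested. The 3 Gata2 KD arrays lay above the 3 EV arrays for all 10 genes, which was so for 7.1% of all tested probes. In Pu.1 KD genes of the same set were lower: 8 fell against EV and none rose, where 1.4% of probes were called lower and 1.23% higher, with a median change of -1.24 over the 10 genes beside -0.05 over all genes. For these 8 genes the 3 Pu.1 KD arrays lay below the 3 EV arrays, which was so for 9.41% of all probes. Both comparisons use the same EV arrays, so they are not independent. In bulk RNA of this kind, fewer cells of a type and less RNA per cell cannot be told apart.

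**Figure D1:**
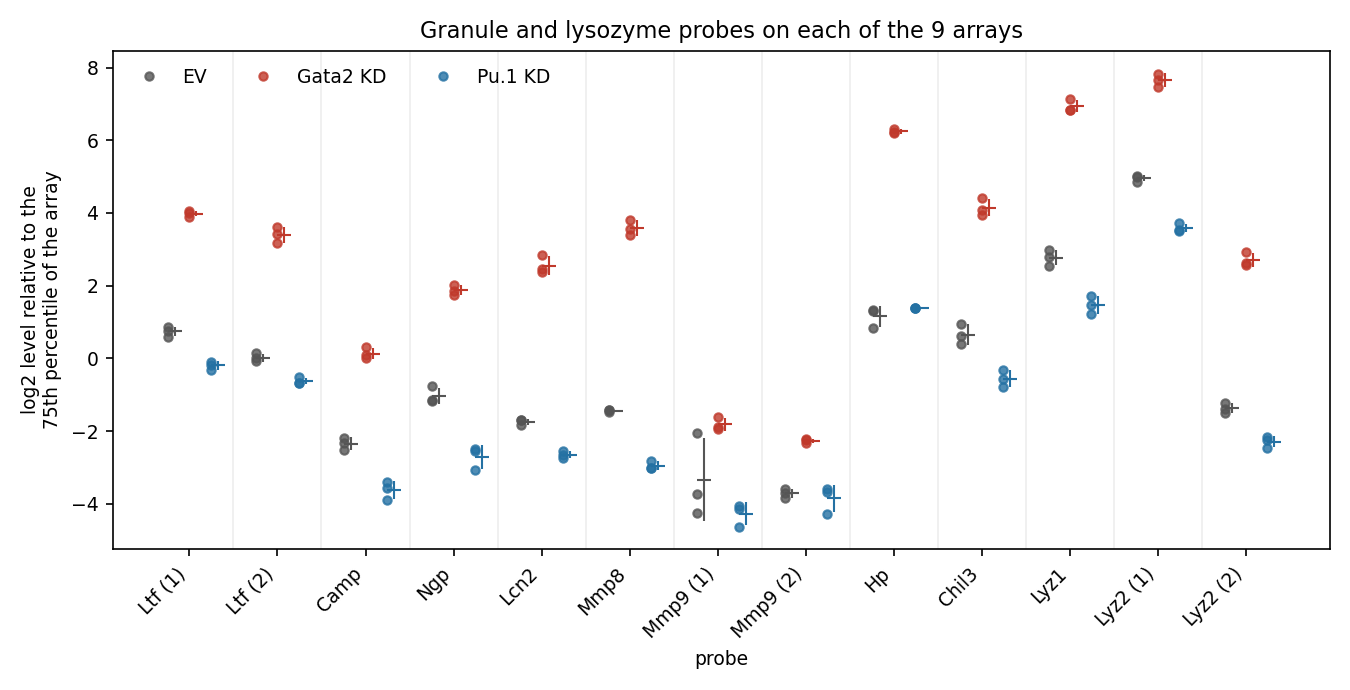
Log2 level of each of the 13 probes (x axis; numbers in parentheses separate 2 probes of a gene, the brighter being 1) relative to the 75th percentile of the array (y axis), with 1 point for each array and the mean and SD of the 3 arrays of a group beside the points. The red Gata2 KD points lie above the gray EV points for every probe, and the EV points are spread most widely for Mmp9 (1), with an SD of 1.15.

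The specific granule genes came up strongly in Gata2 KD. Lactoferrin, the product of Ltf, binds iron and so withholds it from microbes. On its brighter probe Ltf read 0.60, 0.87 and 0.75 in EV, 3.99, 3.90 and 4.05 in Gata2 KD and -0.17, -0.09 and -0.32 in Pu.1 KD. All Gata2 KD arrays were high and all Pu.1 KD arrays low, with no overlap between any of the groups. Ltf rose by 3.24 (SE 0.14; adjusted p = 9.76e-06), a 9.45-fold rise, in Gata2 KD and fell by 0.94 (SE 0.14; adjusted p = 0.0113) in Pu.1 KD. Its other probe rose by 3.38 in Gata2 KD and changed by -0.64 in Pu.1 KD, the latter without reaching the threshold (adjusted p = 0.0745). The probes of Ltf correlated at 0.996 over the 9 arrays.

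Camp encodes the cathelicidin antimicrobial peptide precursor, and Ngp (neutrophilic granule protein) encodes a cystatin-related protein of the same granules. Camp read -2.52, -2.18 and -2.32 in EV, 0.31, 0.09 and 0.00 in Gata2 KD and -3.89, -3.40 and -3.55 in Pu.1 KD. Ngp read -1.14, -0.77 and -1.18 in EV, 1.74, 1.86 and 2.01 in Gata2 KD and -2.48, -2.56 and -3.08 in Pu.1 KD. Neither gene had overlapping groups. Camp rose by 2.48 (SE 0.18; adjusted p = 0.000104) in Gata2 KD, the smallest of the called rises, and fell by 1.27 (adjusted p = 0.00988) in Pu.1 KD. Ngp rose by 2.90 (SE 0.20; adjusted p = 9.21e-05) and fell by 1.68 (adjusted p = 0.00577), which was the largest fall among the 10 genes. Within the slides, the difference of the Pu.1 KD array from the EV array ran from -1.94 to -1.30 for Ngp and from -1.56 to -1.03 for Camp.

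Lipocalin 2, encoded by Lcn2, captures bacterial siderophores, and neutrophil collagenase, encoded by Mmp8, cleaves fibrillar collagen. Lcn2 read -1.70, -1.68 and -1.83 in EV, 2.84, 2.45 and 2.37 in Gata2 KD and -2.65, -2.56 and -2.75 in Pu.1 KD. Mmp8 read -1.46, -1.43 and -1.41 in EV, 3.81, 3.55 and 3.39 in Gata2 KD and -3.01, -2.81 and -3.03 in Pu.1 KD. The groups of either gene stood clear of each other, and the EV arrays of Mmp8 were within an SD of 0.03. Lcn2 rose 19.6-fold in Gata2 KD (log2 change 4.29, SE 0.16; adjusted p = 7.86e-06) and Mmp8 rose 32.4-fold (log2 change 5.02, SE 0.15; adjusted p = 3.67e-06). In Pu.1 KD they fell by 0.92 (adjusted p = 0.0226) and by 1.51 (adjusted p = 0.00248). The call for Lcn2 in Pu.1 KD was the least secure of the 8 and was lost under 10 of 20 alternative settings, while that for Mmp8 was kept under all 20.

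The gelatinase gene Mmp9, whose product cleaves denatured collagen, was called on only 1 of its 2 probes in Gata2 KD. The brighter probe, a single spot on each array, read -3.73, -4.24 and -2.05 in EV, -1.89, -1.60 and -1.95 in Gata2 KD and -4.14, -4.63 and -4.05 in Pu.1 KD. EV replicate 3 stood far above the other EV arrays and close to the Gata2 KD arrays. That spot also decided which probe was the brighter, with means over the 9 arrays of -3.27 on the other probe and -3.14 on this one. The change of 1.52 in Gata2 KD had an SE of 0.49 and did not pass (adjusted p = 0.158), and without EV replicate 3 it was 2.17 (adjusted p = 0.0024). The other probe is present as 10 spots on each array. Its means were -3.58, -3.84 and -3.72 in EV, -2.32, -2.26 and -2.21 in Gata2 KD and -3.58, -4.27 and -3.68 in Pu.1 KD, with the spots of an array spread by an SD of 0.07 to 0.30. On this probe EV replicate 3 lay between the other EV arrays, and Mmp9 rose by 1.45 (SE 0.19; adjusted p = 0.00327) in Gata2 KD. In Pu.1 KD the 10-spot probe changed by -0.13 (95% interval -0.57 to 0.32; adjusted p = 0.965) and the single-spot probe by -0.94 (95% interval -2.07 to 0.20; adjusted p = 0.551), and the EV and Pu.1 KD arrays overlapped on both.

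**Figure D2:**
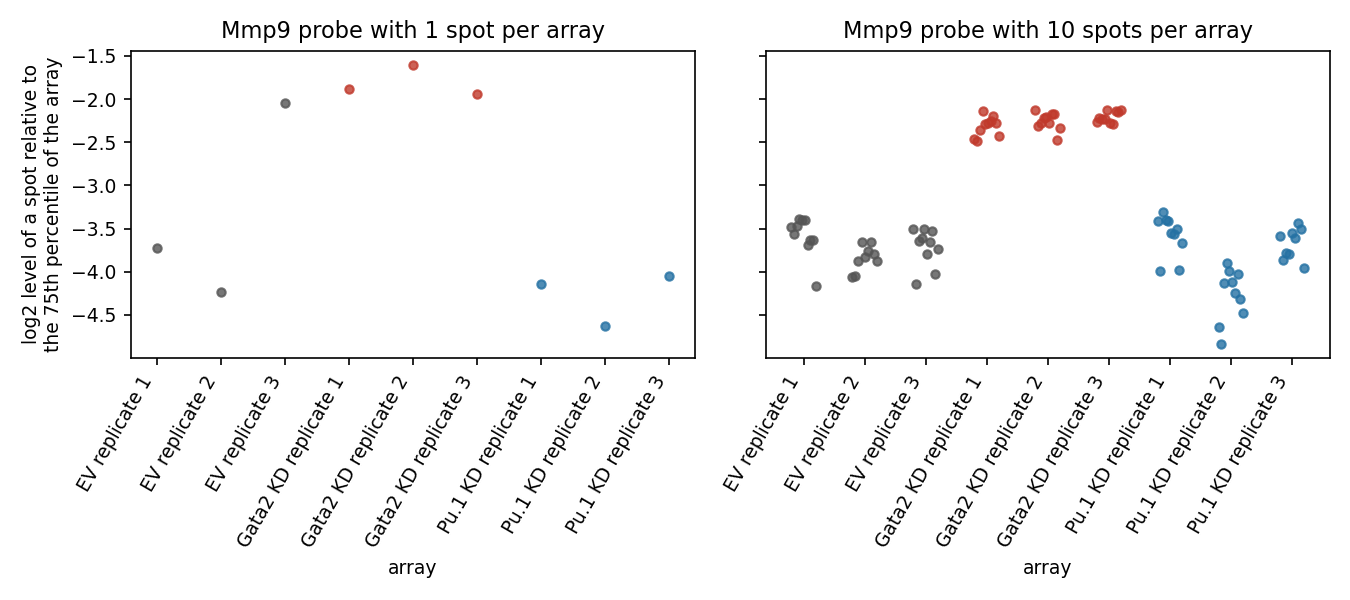
Log2 level of each spot of the Mmp9 probes relative to the 75th percentile of the array (y axis) on each of the 9 arrays (x axis), the single-spot probe on the left and the 10-spot probe on the right. EV replicate 3 reads -2.05 on the single-spot probe, near the red Gata2 KD arrays, while its mean over 10 spots on the other probe is -3.72, among the gray EV arrays.

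Hp, like Mmp9, was not called in Pu.1 KD. It encodes haptoglobin, a hemoglobin-binding plasma protein made chiefly by the liver and also stored in neutrophil granules. Hp read 1.32, 1.32 and 0.82 in EV, 6.32, 6.20 and 6.22 in Gata2 KD and 1.39, 1.38 and 1.39 in Pu.1 KD. The rise in Gata2 KD was 34.1-fold (log2 change 5.09, SE 0.16; adjusted p = 3.67e-06), the largest of the 10 genes. In Pu.1 KD it changed by 0.23 (95% interval -0.14 to 0.60; adjusted p = 0.745). That interval lies above the falls of the 8 called genes, which were between -1.68 and -0.92. The Pu.1 KD arrays read just above all 3 EV arrays, which was so for 7.8% of tested probes. The change ranged from 0.06 to 0.31 over the alternatives and was 0.06 without EV replicate 3, the lowest EV array.

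Chil3 encodes a chitinase-like lectin, known as Ym1, of neutrophil granules and alternatively activated macrophages. It read 0.96, 0.61 and 0.39 in EV, 4.41, 4.07 and 3.95 in Gata2 KD and -0.79, -0.56 and -0.33 in Pu.1 KD. The groups did not overlap, although both EV and Pu.1 KD were more spread than for Mmp8 or Lcn2. Chil3 rose by 3.49 (SE 0.21; adjusted p = 4.22e-05) in Gata2 KD and fell by 1.22 (SE 0.21; adjusted p = 0.0213) in Pu.1 KD, a call that was lost under 9 of 20 alternatives.

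Lyz1 and Lyz2 encode lysozymes, which cleave bacterial cell wall peptidoglycan, Lyz2 being the form of myeloid cells and Lyz1 that of Paneth cells of the gut. The study named Lyz1 and Lyz2 among the genes that rose after Gata2 knockdown on these same arrays, together with Mpo, Csf1r and Csf3r. It also reported a rise of Pu.1 after Gata2 knockdown. The directions seen here for these genes are therefore not independent evidence. Lyz1 read 2.55, 2.97 and 2.80 in EV, 7.12, 6.83 and 6.84 in Gata2 KD and 1.47, 1.72 and 1.23 in Pu.1 KD. The brighter Lyz2 probe read 4.85, 5.03 and 5.00 in EV, 7.83, 7.67 and 7.46 in Gata2 KD and 3.54, 3.72 and 3.50 in Pu.1 KD. The dimmer Lyz2 probe read -1.49, -1.22 and -1.39 in EV, 2.57, 2.63 and 2.92 in Gata2 KD and -2.17, -2.25 and -2.46 in Pu.1 KD. All 3 probes kept the groups apart in the same order, Gata2 KD highest and Pu.1 KD lowest.

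Lyz1 rose by 4.16 (SE 0.18; adjusted p = 1.3e-05) in Gata2 KD and fell by 1.30 (adjusted p = 0.0106) in Pu.1 KD. For Lyz2 the brighter probe rose by 2.69 (SE 0.15; adjusted p = 3.06e-05) and the dimmer by 4.07 (SE 0.16; adjusted p = 7.96e-06), so the size of the rise depended on the probe, 6.46-fold on the brighter and 16.8-fold on the dimmer. The brighter probe reached processed intensities of 98313 to 103053 in Gata2 KD, from 15815 to 17330 in EV, without a saturation flag, and the dimmer probe 2690 to 4249, from 188 to 217. In Pu.1 KD the brighter probe fell by 1.37 (adjusted p = 0.00337) and the dimmer by 0.93 (adjusted p = 0.0209). Whether each probe reads only its own paralog was not tested.

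**Figure D3:**
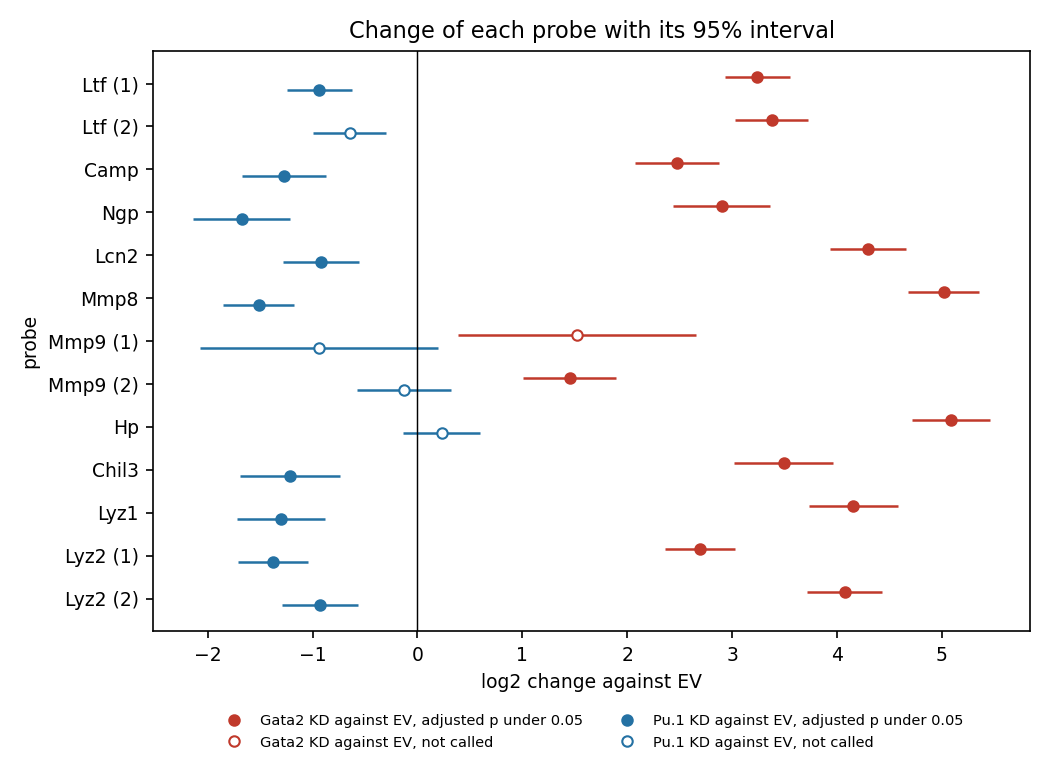
Log2 change against EV (x axis) of each of the 13 probes (y axis; 1 is the brighter probe of a gene) in Gata2 KD (red) and Pu.1 KD (blue), with 95% intervals from limma and filled points for an adjusted p under 0.05. In Gata2 KD 12 of the 13 probes are called, all higher, and in Pu.1 KD 9 are called, all lower, with Hp, both Mmp9 probes and the dimmer Ltf probe not called.

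The calls in Gata2 KD and those in Pu.1 KD differed in how firmly they held. In Gata2 KD all 9 calls held under each of 20 alternative settings. In Pu.1 KD the falls of Ngp, Mmp8 and Lyz2 held under all 20, whereas those of Camp, Ltf, Lyz1, Chil3 and Lcn2 were lost under 3, 5, 5, 9 and 10 of them. Only 4 genes were called when Pu.1 KD replicate 1 or Pu.1 KD replicate 3 was left out. Scaling to the array median, or fitting only the EV and Pu.1 KD arrays, left 3. No direction turned: every one of the 8 genes was lower in Pu.1 KD on each of the 3 slides.

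Set directly against each other, the knockdowns differed in all 10 genes, which were higher in Gata2 KD than in Pu.1 KD with adjusted p between 6.73e-07 for Mmp8 and 0.0154 for Mmp9, where 4.68% of all tested probes were called higher and 4.94% lower. The median difference was 4.64 beside -0.05 over all genes. Mmp8 differed by 6.53 (SE 0.15), Lyz1 by 5.46, Lcn2 by 5.21, Hp by 4.86, Chil3 by 4.71 and Ngp by 4.58. Ltf differed by 4.18, Lyz2 by 4.07, Camp by 3.75 and Mmp9 by 2.46 (SE 0.49). For Hp the difference of Gata2 KD from Pu.1 KD was no larger than that from EV. The 3 Gata2 KD arrays lay above the 3 Pu.1 KD arrays for all 10 genes, which was so for 11.2% of tested probes. For 14.8% of probes they lay below. The call for Mmp9 was lost without Gata2 KD replicate 2, Pu.1 KD replicate 1 or Pu.1 KD replicate 2, with differences of 2.36, 2.53 and 2.28, and on its 10-spot probe the difference was 1.58 (adjusted p = 0.00116).

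The profiles of the 10 genes over the 9 arrays were much alike. Pearson's r of the 45 pairs lay between 0.767 and 0.999 with a median of 0.985. Once the group means were taken out, r of the same pairs ran from -0.92 to 0.93 with a median of 0.21. Of 15765 genes searched, those most like each member over the 9 arrays were S100a8 for Camp (r = 0.997), the formyl peptide receptor gene Fpr2 for Lcn2 (r = 0.999), Lbp for Ltf (r = 0.998), and Lsp1 for both Ngp (r = 0.997) and Lyz2 (r = 0.998). Emb was most like Mmp8 (r = 0.997) and Chil3 (r = 0.997), Csf1r most like Hp (r = 0.997), Cebpd most like Lyz1 (r = 0.997) and St18 most like Mmp9 (r = 0.998). These correlations share the same 3 groups of arrays and are given as a description.

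Other granule genes also rose in Gata2 KD. Of 6 primary granule genes tested, 5 rose in Gata2 KD and 3 fell in Pu.1 KD, with medians of 1.93 and -0.86. Mpo (myeloperoxidase), Elane (neutrophil elastase), Prtn3 (proteinase 3) and Ctsg (cathepsin G) rose by 3.06, 3.03, 2.92 and 0.94, and Mpo, Prtn3 and Prss57 fell by 2.81, 1.47 and 1.00 in Pu.1 KD. Of 17 other later granule and secretory vesicle genes tested, 11 rose and 0 fell in Gata2 KD (median 1.21), led by Fpr2 at 4.04, Chil1 at 3.91, Fpr1 at 3.08 and the metal transporter gene Slc11a1 at 2.50. In Pu.1 KD 3 of the 17 fell (median -0.28). These were Fpr2 by 0.84, the peptidoglycan recognition protein gene Pglyrp1 by 0.82 and the urokinase receptor gene Plaur by 0.80. Over all genes, 4.05% were called higher and 3.07% lower in Gata2 KD, and 1.41% higher and 2.12% lower in Pu.1 KD. With normexp, quantile normalization, scaling to the median or the deposited log2 values, 3 to 5 of the primary granule genes and 10 to 12 of the others rose in Gata2 KD, and 2 to 5 and 0 to 3 fell in Pu.1 KD, where 0 of the others fell with scaling to the median. With the slide as a block 5 of the others fell in Pu.1 KD.

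Relatives and binding partners of the 10 genes mostly stayed below the threshold. Of 13 tested, 1 rose in Gata2 KD, the Chil3 paralog Chil4 by 2.73 (adjusted p = 0.000758), and 0 were called in Pu.1 KD with limma (2 at an unadjusted p under 0.05), with medians of 0.06 and -0.05. With the slide as a block or with normexp 2 rose in Gata2 KD, with the deposited values 3 did, and 1 was called higher in Pu.1 KD with normexp, quantile normalization or the deposited values. The genes next to the 10 in the RefSeq order were looked up after these values were seen. Of 18 such protein-coding neighbors outside the set, 15 were tested, and only Chil4, beside Chil3, was called in Gata2 KD. Mmp10, beside Mmp8, changed by 0.04 and Ptges2, beside Lcn2, by -0.04. In Pu.1 KD the only called neighbor was 1110008P14Rik, on the other side of Lcn2, at -0.98 (adjusted p = 0.012).

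Among 15 tested regulators of granule genes, 6 rose and 2 fell in Gata2 KD (median 0.38) and 4 fell in Pu.1 KD (median -0.55). These counts include Gata2 and Spi1, the targets of the hairpins, and Spi1 is also among the 6 that rose in Gata2 KD. Cebpd, a C/EBP factor, rose by 3.20, Csf3r, the G-CSF receptor gene, by 3.09 and Gfi1, a repressor needed for neutrophil maturation, by 2.04, while Gata2 itself fell as given above. In Pu.1 KD the falls were those of Spi1, of Csf3r by 1.42, of Runx1 by 1.04 and of Cebpa by 0.81. Under the same 4 alternative sets of values the counts were 4 to 6 higher and 1 to 4 lower in Gata2 KD and 1 to 7 lower in Pu.1 KD, and with the slide as a block they were 6 and 3 in Gata2 KD and 7 lower in Pu.1 KD.

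**Figure D4:**
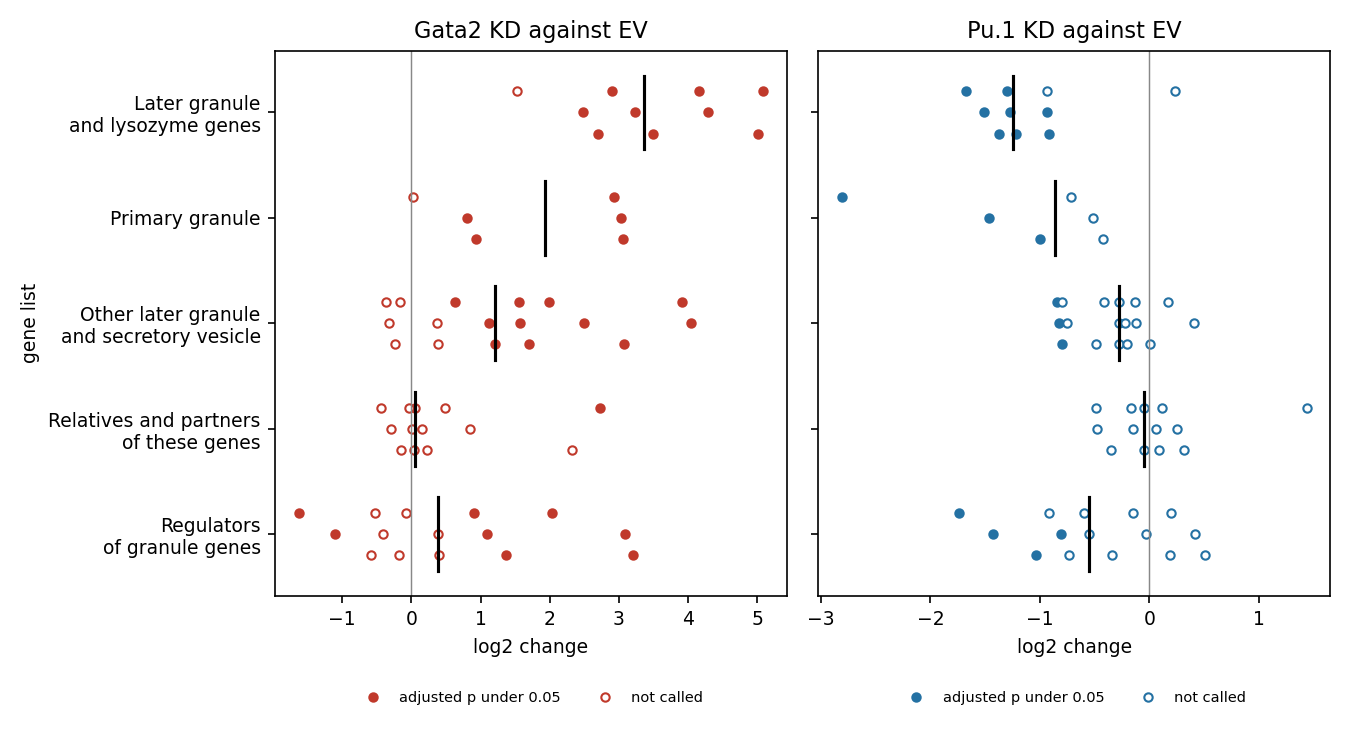
Log2 change (x axis) of each tested gene in Gata2 KD against EV (left) and Pu.1 KD against EV (right) for the 10 later granule and lysozyme genes and 4 further lists (y axis), with filled points for an adjusted p under 0.05 and a black bar at the median of the list. The medians in Gata2 KD are 3.37, 1.93, 1.21, 0.06 and 0.38 from top to bottom, and those in Pu.1 KD are -1.24, -0.86, -0.28, -0.05 and -0.55.

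Some markers of whole cell types rose in Gata2 KD and fell in Pu.1 KD, like most of the granule and lysozyme genes. Others did not. Kit rose in both knockdowns, and the called mast cell and basophil markers fell in Gata2 KD. The called erythroid markers went the opposite way, and no lymphoid marker was called. The 7 progenitor markers were above background on all 9 arrays, as the label of the line has it, with sums of linear levels of 52.5 to 64.5 in EV, 78.0 to 91.8 in Gata2 KD and 44.0 to 49.6 in Pu.1 KD. Of these, Cd34 rose by 2.15 and Kit by 0.73 in Gata2 KD, and in Pu.1 KD Kit rose by 1.41 while Runx1 fell by 1.04 and Cd34 by 0.92. In Gata2 KD 6 of 7 neutrophil markers rose and in Pu.1 KD 4 fell. Their summed linear level was 110 to 127 on the EV arrays, 833 to 965 in Gata2 KD and 18.6 to 24.9 in Pu.1 KD. Each such sum is led by the brightest probes of its list, so it compares groups and not lists. Here Mpo and S100a9 were the brightest of the 7 neutrophil markers in every group. Of these markers Mpo, Elane, Csf3r and Itgam also stand in the lists above. Besides these, S100a8 rose by 3.58 in Gata2 KD, and S100a9 and S100a8 fell by 2.29 and 1.80 in Pu.1 KD. Of 9 monocyte and macrophage markers 6 rose in Gata2 KD, among them Csf1r by 4.50, Cd14 by 3.15 and Ccr2 by 2.69, and Adgre1 fell by 0.99 in Pu.1 KD, with sums of 4.57 to 5.04 in EV, 26.1 to 30.4 in Gata2 KD and 3.22 to 3.77 in Pu.1 KD. Mrc1, counted among the 6, was not well above background on any EV or Pu.1 KD array and was tested only because of its Gata2 KD arrays, where it was at least 6.76-fold higher than in EV (adjusted p = 0.000612), with the EV level of each array set to the dimmest signal that was well above background there, or to the signal of Mrc1 where that was brighter; of the other 8 markers 5 rose. Of 8 mast cell and basophil markers 5 fell in Gata2 KD, including Fcer1a by 2.98, Cpa3 by 2.51, Prss34 by 1.76 and Mcpt8 by 1.54. In Pu.1 KD Prss34 fell by 0.82 and Fcer1a by 0.70, but Cma1 rose by 1.48. The sum of the 8 was 99.6 to 115 in EV, 17.4 to 18.6 in Gata2 KD and 65.4 to 72.9 in Pu.1 KD.

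Eosinophil markers had sums of 3.32 to 4.59 in EV, 10.2 to 13.4 in Gata2 KD and 1.24 to 1.38 in Pu.1 KD, with 2 of 5 higher in Gata2 KD (Prg2 by 1.76 and Epx by 1.58) and 3 of 5 lower in Pu.1 KD (Prg2 by 2.45, Siglecf by 2.41 and Epx by 2.02). Of 5 erythroid markers, Klf1 fell by 1.79 and Epor by 0.67 in Gata2 KD and both rose in Pu.1 KD, by 0.84 and 0.87. The erythroid sums were 8.98 to 9.997 in EV, 6.74 to 10.7 in Gata2 KD and 14.97 to 17.3 in Pu.1 KD. They were led by Hba-a1, the brightest of the 5 in every group, which was not called in Pu.1 KD (0.75; adjusted p = 0.169). None of 5 lymphoid markers was called in either comparison with limma (0 at an unadjusted p under 0.05), and their sums overlapped over the 3 groups, between 1.96 and 3.06. With the slide as a block the number of called markers that rose in Gata2 KD was 8 for monocytes and macrophages and 3 for eosinophils, 6 mast cell and basophil markers fell there, and in Pu.1 KD 5 neutrophil, 2 monocyte and macrophage and 3 mast cell and basophil markers fell and 3 erythroid markers rose. With scaling to the median no monocyte and macrophage, mast cell and basophil or progenitor marker was called lower in Pu.1 KD. What part the cell makeup of each sample had in the changes of the 10 granule and lysozyme genes was not tested.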

How the data were processed

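Cy3-labeled RNA, made from 150 ng of total RNA per sample, was measured on single-color Agilent arrays. For each array the authors deposited a scanner file (Agilent Feature Extraction, version 10.1.1.1) with spot intensity values (background-subtracted and detrended within an array, not normalized between arrays), and a table of log2 values. The methods say that arrays were normalized, with limma and SAM used to find differences, and the normalization method of that table is not given in the sources used here. Each column correlated at 0.997 or more with that array's log2 median signal, with column medians of 7.002 to 7.048, and it was used as an alternative only.

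The log2 processed signal minus the log2 75th percentile of the array was used. Control spots were left out, outlier-flagged spots (47 to 96 per array) were set to missing, and spots of a probe were averaged. A probe was tested when well above background (at least 50% of its spots) on at least 3 of 9 arrays, with at least 2 values in every group, which left 36585 of 41174. Accessions were matched without versions to RefSeq genes of GRCm38.p6 and named 23374 probes. For a gene with several probes the brightest tested probe stood for it. The tests were made in R 4.3.3 with limma 3.58.1 (group means over all 9 arrays, eBayes, two-sided, Benjamini-Hochberg over all tested probes, threshold 0.05), which was tested on simulated data with 200 changed probes. Groups came from the sample titles and slides from the scanner files. Having 3 arrays per group limits the precision.

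The 10 genes, the lists and the tests were chosen with earlier results of these data known. In each list the genes named are up to 4 with the largest called changes in each comparison against EV (the 3 of highest level in a list with no call are not reported here), and the 3 most alike by Pearson's r were found for each of the 10 genes, of which the most alike is given. Promoters, motifs (Python 3.11.15, Biopython 1.88 for alignments) and neighbors were added later. The alternatives were the replicate number or slide as a block, normexp (offset 50, on median signal, since the files hold no mean signal; chosen after seeing the data), scaling to the median, quantile normalization, a filter on all 9 arrays or none, outlier spots kept, trend and robust eBayes, a fit of only the groups compared, the deposited log2 values, each array left out, and for counts the dimmest probe of a gene and a change of at least 2-fold. Coordinates are given only for the promoter windows, on GRCm38.p6, since the array design is annotated to an older build.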

Additional observations from a re-analysis of the deposited data

How the results depend on the processing

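In Gata2 KD against EV and in Gata2 KD against Pu.1 KD, 9 to 10 of the 10 genes were called under all 22 alternatives, including each array left out, and no direction turned in any comparison. In Pu.1 KD against EV, where 8 were called, 3 were called with the replicate block, 3 with scaling to the median and 3 with only the groups compared in the fit, and 4 to 8 when 1 array was left out. Of 200 single values in each comparison (10 genes under 20 alternatives), 198 kept their direction and side of the threshold for Gata2 KD and 168 for Pu.1 KD, both against EV, and 197 between the knockdowns. Mmp9 in Gata2 KD passed with the deposited log2 values (0.99; adjusted p = 0.00955) and without EV replicate 3.

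Arrays with the same replicate number did not deviate together (correlations of deviations from the group means between -0.55 and 0.65, with 4 of 9 pairs over 0.1), so the numbers were not taken to pair the samples, whereas arrays of the same slide did in 8 of 9 pairs (-0.04 to 0.72). The replicate block took the called probes from 1890 to 1167 in Gata2 KD and from 962 to 227 in Pu.1 KD. The 10 genes kept 9 or 10 calls in Gata2 KD and between the knockdowns. In Pu.1 KD their calls fell from 8 to as few as 3. The number of called probes depended on the setting in every comparison. In Gata2 KD it was 2924 with the slide as a block, 1191 with scaling to the median (827 higher and 364 lower, against 1036 and 854), 1106 with only the groups compared, and 1047 or 1192 when Gata2 KD replicate 2 or 3 was left out. In Pu.1 KD it was 1830 with the slide as a block, 368 with scaling to the median, 1565 with trend and robust eBayes, 1785 with the deposited log2 values, 219 with only the groups compared, 495 and 439 without EV replicate 1 or 2, 558 and 619 without Gata2 KD replicate 2 or 3, and 277, 330 and 319 without Pu.1 KD replicate 1, 2 or 3. Between the knockdowns it went from 3517 to 2266 with scaling to the median and 2211 without Gata2 KD replicate 2. The causes were not tested. The change of the dim Camp probe in Pu.1 KD was -0.67 with normexp on the median signal and -0.92 with the deposited values.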
